A study of Drosophila melanogaster with 3 samples.

Results

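Clustered summits are places where an Antp-eGFP fusion protein gave at least 2 separate ChIP-seq summits close together on the chromosome. They were chosen by position, from the deposited list of reproducible peaks in the dm6 genome assembly (the IDR list, named for a procedure that compares peak ranks between replicates). Its 4351 peaks were all among the 4351 strongest entries of the list called on the pooled replicates. A peak of the IDR list can therefore lack an entry in a single replicate. A summit counted when its nearest neighbour lay 500 to 2000 bp away, after summits within 500 bp of each other had been merged to the one with the higher peak signal. Of 4351 peaks, 155 were merged away, and 1051 of the remaining 4196 summits met the rule. The other 3145 summits had no neighbour within 2000 bp. Linked members formed 475 runs with 576 pairs of neighbours: 398 runs had 2 summits, 63 had 3, 9 had 4, 3 had 5, 1 had 6 and 1 had 9. Because spacing and signal chose the members, their number, spacing and levels are given as a description.

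The chromatin came from Drosophila melanogaster embryos of both sexes, collected at 0 to 24 h. The fly line (AntP-MiMIC-GFP) carries an exon for enhanced green fluorescent protein inside an intron of Antp, so the fusion is made from the Antp locus. Sonicated fragments of 200 to 800 bp were pulled down with an antibody against GFP, although another label names Antp as the antibody. There was 1 group of 3 biological replicates, each with a list of 30000 ranked entries, and control libraries were not analysed here. In whole embryos of mixed age, strong binding in few cells and weak binding in many cannot be told apart, and neither can 2 neighbouring summits bound together and bound in different cells. The lists hold no read totals, so the depth behind each summit is unknown.

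Antennapedia is a homeodomain protein that gives thoracic segments their identity, and homeodomains of its class bind short AT-rich sites built on TAAT. Regulatory DNA of fly genes often holds several separate elements: a promoter, further promoters of the same gene, and enhancers in introns or upstream. Active housekeeping promoters commonly carry the DRE, bound by DREF, or the Ohler1 motif, bound by M1BP, while GAGA repeats are bound by GAGA factor, the product of Trl.

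The windows of a pair in the span of ush are shown first because its stronger summit has the highest signal of all members. The windows reach 100 bp to either side of the summit and are read on the plus strand of dm6. The weaker summit is at chr2L:479970-480170 and the stronger at chr2L:480981-481181. The pair at CG11050 (chr2L:6610780-6610980 at a promoter, and chr2L:6612628-6612828 in an intron, with coding sequence at both ends of the window) is shown because its far stronger, intronic summit carries the Hox core. Capitals mark any match to the DRE, Ohler1, GAGA, CA repeat or Hox core, and where there are no capitals none of these matched.
ush, 480070: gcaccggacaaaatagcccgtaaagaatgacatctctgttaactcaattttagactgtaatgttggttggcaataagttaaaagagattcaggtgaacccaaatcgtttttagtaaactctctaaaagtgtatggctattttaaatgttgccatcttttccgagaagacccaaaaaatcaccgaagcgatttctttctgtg
ush, 481081: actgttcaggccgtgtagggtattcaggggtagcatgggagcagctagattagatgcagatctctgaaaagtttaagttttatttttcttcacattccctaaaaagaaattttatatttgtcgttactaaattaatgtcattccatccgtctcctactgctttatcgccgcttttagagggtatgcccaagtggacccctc
CG11050, 6610880: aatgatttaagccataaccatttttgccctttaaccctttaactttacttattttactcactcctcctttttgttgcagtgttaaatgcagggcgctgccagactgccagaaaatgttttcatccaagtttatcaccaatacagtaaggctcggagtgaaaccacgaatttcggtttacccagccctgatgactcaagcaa
CG11050, 6612728: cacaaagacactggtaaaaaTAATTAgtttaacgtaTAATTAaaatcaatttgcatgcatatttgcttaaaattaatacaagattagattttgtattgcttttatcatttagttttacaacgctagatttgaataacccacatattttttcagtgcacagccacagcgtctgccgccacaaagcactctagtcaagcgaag

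Windows of 50 bp to either side show the other motifs that the comparison turns on. Each is at a member that carries the motif within 50 bp and touches no UTR, the strongest of those considered. Not every member was considered for these windows. They lie at chr2L:7032611-7032711 (Rab30 promoter, DRE), chr3R:17385780-17385880 (lute promoter, Ohler1), chrX:2302245-2302345 (Raf intron, GAGA) and chr2L:20085188-20085288 (fok promoter, CA repeat), again on the plus strand. Capitals mark the motif on either strand.
Rab30, DRE: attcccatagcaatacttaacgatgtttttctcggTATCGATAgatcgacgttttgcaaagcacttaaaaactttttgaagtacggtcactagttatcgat
lute, Ohler1: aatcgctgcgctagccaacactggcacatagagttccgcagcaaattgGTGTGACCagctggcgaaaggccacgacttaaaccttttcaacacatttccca
Raf, GAGA: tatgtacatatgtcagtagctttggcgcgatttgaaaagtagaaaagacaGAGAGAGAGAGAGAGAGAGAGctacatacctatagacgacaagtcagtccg
fok, CA repeat: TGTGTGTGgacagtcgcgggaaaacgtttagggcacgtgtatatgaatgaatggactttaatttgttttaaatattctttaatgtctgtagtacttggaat

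Neighbouring summits lay a median of 1122.5 bp apart (quartiles 799 and 1512 bp). Short spacings were the more common: 122 pairs were 500 to 750 bp apart, and the number fell with each step of 250 bp to 65 pairs at 1750 to 2000 bp. No pair had touching peak intervals, and the smallest gap between the intervals of a pair was 91 bp. Of the 1051 members, 694 had intervals 390 bp wide, and merging leaves summits over 500 bp apart. The gap is therefore largely set by the rule and says little about how separate the summits are. Just inside the lower limit were the pairs at CG5535, 509 bp apart with signals of 116 and 265, and at unc-119, 514 bp apart with 312 and 336. Just outside it, summits at mam, 483 bp apart with signals of 154 and 107, were merged. At the upper limit, a pair at CHES-1-like was 1984 bp apart (signals 294 and 442), while summits at Trpm and CG8152 were 2007 bp apart (190 and 198) and did not count. The rule applied to each replicate's own 4351 strongest entries gave 1063, 1077 and 1112 members, or 25.4%, 25.6% and 26.4% of the merged summits.

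**Figure D1:**
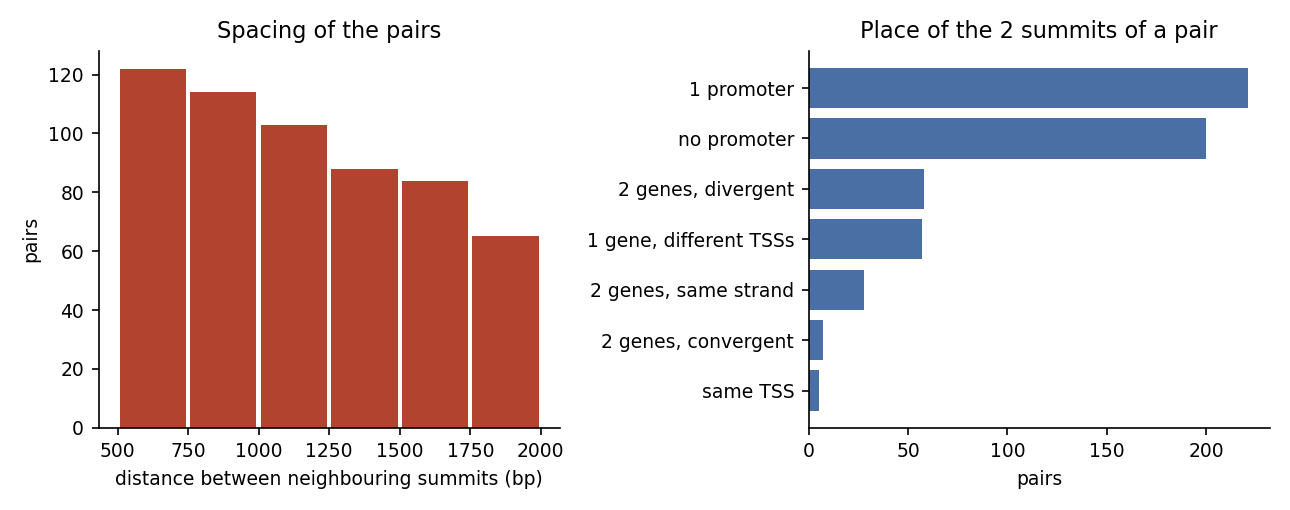
Left, number of pairs of neighbouring clustered summits by distance (bp, bins of 250 bp). Right, number of pairs by the annotated place of both summits; 1 promoter (221 pairs) and no promoter (200 pairs) are the largest classes.

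The signal of a member, the strength that the peak caller reported, often differed from that of its neighbour. The median pooled signal was 187 at clustered summits and 169.9 at the others, 285 at the strongest summit of each run and 144 at the weaker members. Within a pair the stronger summit exceeded the weaker by a median of 1.71-fold, 343 of 576 pairs differed by less than 2-fold, and 42 by more than 5-fold. Across the 576 pairs the signals of the left and the right summit had a Spearman rho of 0.000607, and of 0.0140, -0.00477 and -0.0285 with the signals of replicates 1, 2 and 3. The pairs share libraries and all lie above the IDR limit, so rho is a description only.

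Which summit of a pair was the stronger held across replicates where the difference was large. Both summits of a pair had an entry within 100 bp in 94.3% ± 1.13 of pairs (SD, n = 3 replicates) among all entries, and in 74.2% ± 2.48 (SD, n = 3) among the 4351 strongest. In all 3 replicates at once this held for 487 and 269 pairs. Of the 487 pairs, 353 had the same stronger summit in every replicate. That count was 196 of 197 where the pooled signals differed by 2-fold or more and 157 of 290 where they differed by less. The IDR list was made from these same replicates, so the matches are no independent repeat.

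**Figure D2:**
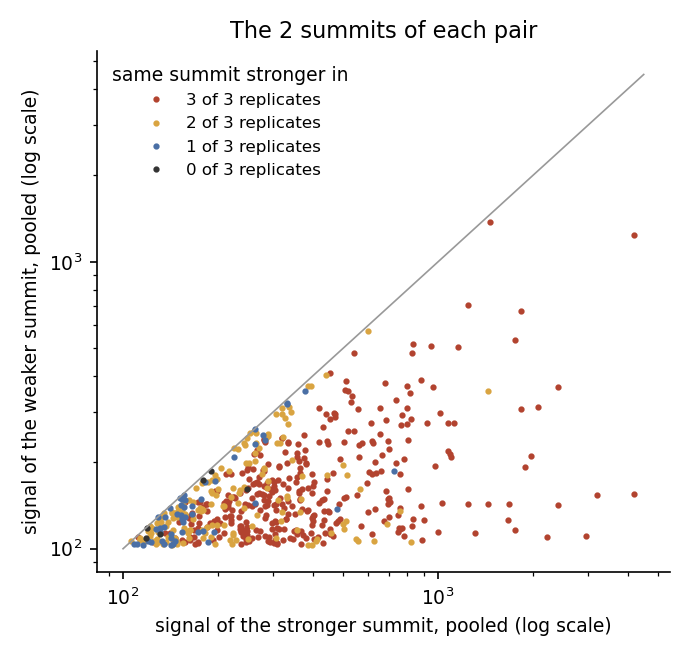
Pooled signal of the weaker summit against the stronger summit of each of the 576 pairs (both axes logarithmic, line of equal signal). Colour gives the number of replicates in which the same summit was the stronger: 3 in 353 pairs and 0 in 6; a replicate that lacks an entry for either summit counts as not the same. Points far from the line are mostly of the first kind.

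The member with the highest signal lay in the span of ush, which codes for a zinc finger cofactor of GATA factors, beside the nested gene cbt, itself a zinc finger factor gene. The summit at 481081, in an intron of ush and 1393 bp from the cbt TSS, had signals of 1231, 1480 and 1513 in replicates 1, 2 and 3. It was rank 2 in all 3 lists. The summit at 480070, 382 bp from the cbt TSS, had 363, 432 and 459, and the one at 481925 had 29.5, 71.5 and 60.0. The 3 summits kept this order in every replicate, and the largest pooled ratio of any pair, 27.0-fold, was that of the summits at 481081 and 481925. With 9 clustered of 13 summits over 64341 bp, ush was second among genes by clustered summits.

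The largest run held 9 summits over 10358 bp on X and crossed into Raf, which codes for the kinase that passes the signal of receptor tyrosine kinases to the MAPK cascade. It began at the CG2865 promoter (signals 93.4, 159 and 147 in replicates 1, 2 and 3) and ended in a Raf intron (139, 157 and 160). The fourth summit, in an intron 2258 bp from the Raf TSS, led with 601, 629 and 615, and the third, of the 5′ UTR class at 835 bp from the TSS, followed with 211, 200 and 267. The second summit, 755 bp before the TSS, was the least even at 44.5, 16.9 and 60.2, and the seventh had 31.5 and 39.2 with no entry in replicate 3. The other summits stayed between 83.3 and 202. Of the 9 windows, 4 held the Hox core and 2 held a GAGA match.

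At ph-p, which codes for a subunit of Polycomb repressive complex PRC1, 5 summits spanned 3500 bp. The fourth, 474 bp from a TSS of ph-p, had signals of 682, 891 and 860 in replicates 1, 2 and 3. The fifth had 99.6, 146 and 135, and the first 3 had between 32.6 and 135. The fourth was therefore several times the others in every replicate. In the run of 6 over 6097 bp at Pgk, the glycolytic phosphoglycerate kinase gene, and its neighbour Bacc, no summit led. The first had 132, 107 and 144, the third had 140, 138 and 122, and the fourth was the least even with 53.7, 108 and 177. Which of these 3 summits was highest differed between replicates. In this run 5 of the 6 summits lay within 500 bp of an annotated TSS. At shn, a zinc finger gene of the Dpp pathway, all 5 summits were intronic with replicate signals from 21.5 to 119.

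**Figure D3:**
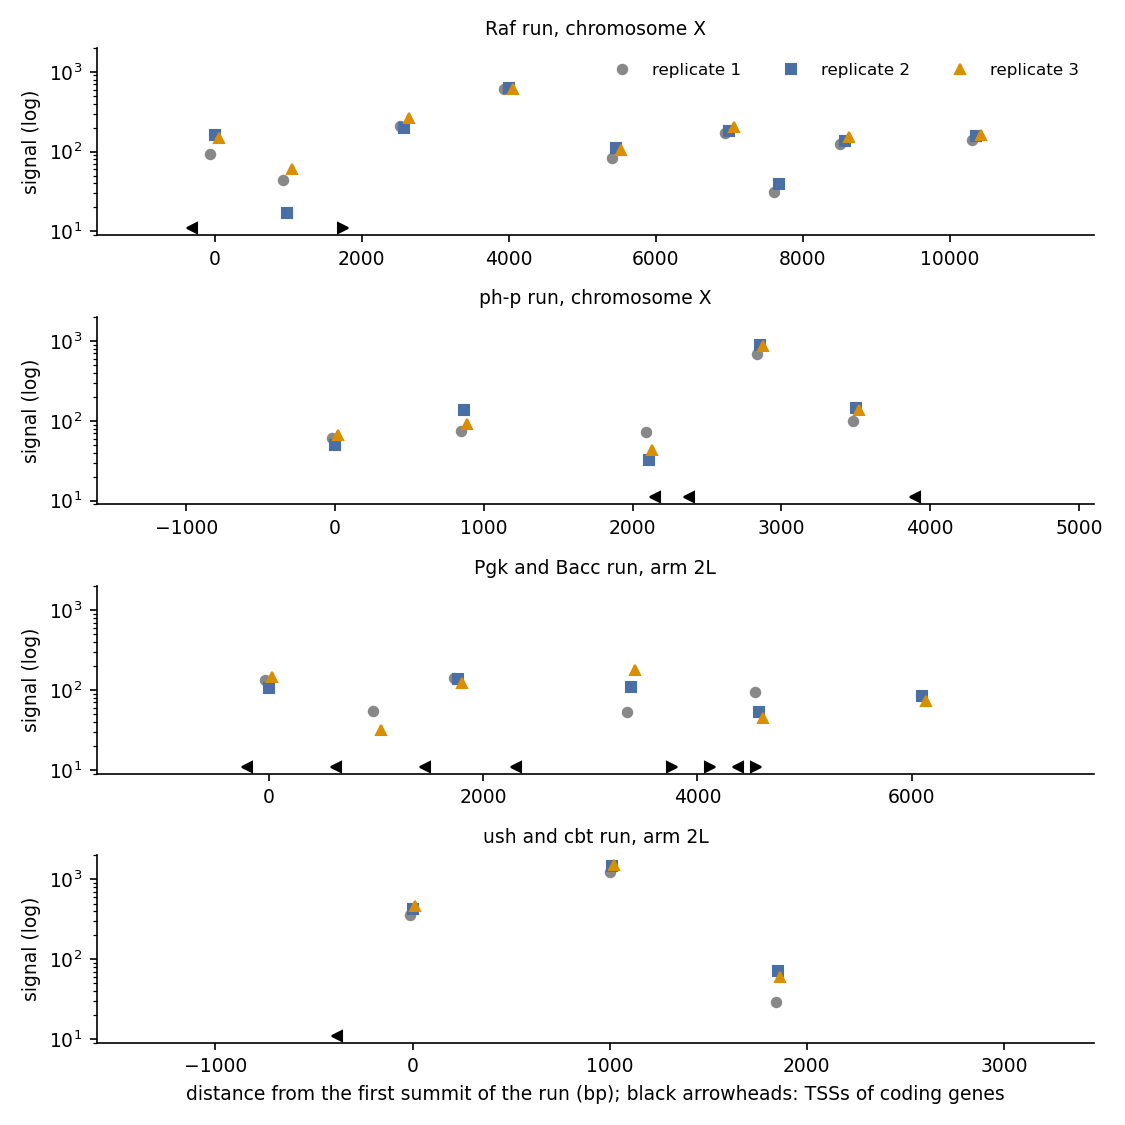
Signal (log axis) of each summit in replicates 1, 2 and 3 against distance from the first summit of the run (bp), for the runs at Raf, ph-p, Pgk and Bacc, and ush and cbt. Black arrowheads mark TSSs of coding genes and point in the direction of transcription; a summit with no entry in a replicate has no point for it.

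Most other runs that held the strongest members joined 1 high and 1 low summit. At px, a wing vein gene, the promoter summit had signals of 1027, 1073 and 1097 in replicates 1, 2 and 3, and the intronic summit 1774 bp away had 32.4, 59.0 and 56.1. At lncRNA:CR45643 the intergenic summit had 947, 977 and 1014, the summit 95 bp from the TSS had 33.0, 38.9 and 21.4, and another intergenic one beyond it had 224, 301 and 261. At CG11050 the intronic summit had 615, 748 and 729 against 118, 118 and 86.1 at the promoter. At CG9663 the intronic summit had 703, 769 and 758 against 27.6, 36.9 and 56.6 at the promoter. In these 4 pairs the same summit was the higher in all 3 replicates, and the promoter was the higher one at px only. Over all pairs resolved in all 3 replicates the same summit was the higher in 353 of 487. Where the pooled signals differed by 2-fold or more it was so in 196 of 197, so the 4 pairs are not unusual in this. The runs were named for their highest signal, so that choice itself favours a large difference within a pair. Over all 576 pairs the median ratio was 1.71-fold and 42 exceeded 5-fold. Where 1 summit was at a promoter, it was the stronger in 112 of 221 pairs. At Adf1, the gene of a sequence-specific factor, the intronic summit had 577, 611 and 708. The DRE-bearing summit at the divergent promoters of Adf1 and its neighbour Dpit47 had 56.8, 72.0 and 80.3. It lay 4 bp from a TSS of Dpit47 and 151 bp from one of Adf1. A summit at Pal1 (527, 599 and 645) lay 1050 bp from one at the promoter of the muscle factor gene Mef2 (28.2, 42.5 and 46.5). At MFS10 both summits were at promoters, with 662, 635 and 679 against 83.9, 70.5 and 31.3. The run of 5 at CG32767 and CG15465 had its highest summit in an intron (222, 280 and 256), and the other 4 had 29.7 to 51.9, each with an entry in at least 2 replicates.

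Clustered summits were less often at promoters and more often in introns than the other summits. A promoter here is the stretch within 500 bp of a transcription start site (TSS). It held 47.1% of clustered summits (495 of 1051, exact 95% interval 44.0 to 50.2%) and 56.9% of the others (1790 of 3145, 55.2 to 58.7%). With the rule applied to the replicates' own lists the shares were 46.3% and 55.9%, 47.2% and 56.0%, and 45.8% and 56.3%. The difference was -9.67 ± 0.885 percentage points (SD, n = 3), in 3 of 3 replicates (exact sign-flip permutation test, two-sided p = 0.25, the smallest 3 replicates allow). Introns held 38.5% (35.6 to 41.6%) against 28.5% (26.9 to 30.1%), and the difference was 10.3 ± 0.994 points (SD, n = 3, exact p = 0.25). The 5′ UTR beyond the promoter stretch held 12 of 1051 against 4 of 3145, and intergenic sequence 10.9% against 12.1%. The intervals treat summits as independent, which those of a run are not, and cover counting error only.

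The promoter difference depended on distance and strength. Within 1000 bp of a TSS the shares were 62.1% and 64.7%, a difference of -2.61 points, and within 5000 bp they were 91.4% and 85.2%, so more of the clustered summits were near a TSS at that scale. Among the 2175 strongest peaks alone the promoter difference was -18.4 points. Since 2 summits over 500 bp apart seldom fit at 1 TSS, the strongest summit of each run was also taken alone, and 49.1% (44.5 to 53.7%) of these were at promoters. Chromosome X held 24.0% (21.4 to 26.7%) of clustered and 19.0% (17.7 to 20.5%) of other summits, with 22.1% and 18.1%, 23.8% and 18.9%, and 21.8% and 18.6% in the replicates. Chromosome 4 had 0 clustered summits, for which the exact interval reaches 0.350%, and 8 others.

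**Figure D4:**
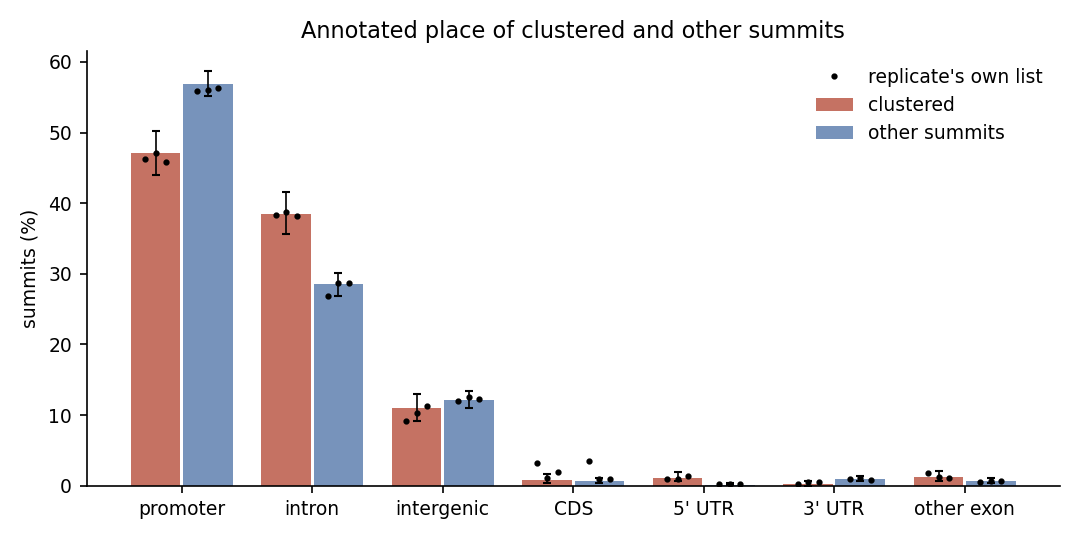
Percentage of clustered (red) and other (blue) summits in each annotated place, with exact 95% intervals over summits; black points are the 3 replicates' own lists. Promoter shares are 47.1% and 56.9%, intron shares 38.5% and 28.5%, and the replicate points of these classes do not overlap between the groups.

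Both summits of a pair usually lay nearest the TSS of 1 gene. This held for 417 of 576 pairs (72.4%, exact 95% interval 68.5 to 76.0%) and for 72.4% ± 1.21 (SD, n = 3) in the replicates' own lists. The rule keeps pairs close, and the share was 80.9% with an upper limit of 1000 bp and 65.6% with one of 3000 bp. No share was taken for other positions this far apart, so it is a description only. In 221 pairs 1 summit was at a promoter, in 200 neither was, and in 155 both were. Of the last, 58 pairs lay at divergent promoters of 2 genes, 57 at different TSSs of 1 gene, 28 at genes on the same strand, 7 at convergent genes and 5 at a single TSS. The median distance was 706 bp for the 5 pairs at a single TSS, 907 bp for pairs at different TSSs of 1 gene, 1144 bp at divergent promoters and 1502 bp at same-strand genes.

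Where 1 summit of a pair was at a promoter, it was the stronger in 112 of 221 pairs (50.7%, exact 95% interval 43.9 to 57.5%). In the replicates it was the stronger in 46.6%, 50.2% and 52.6% of pairs with both entries. The partner lay downstream of the TSS in 117 pairs, 95 of them with the partner in an intron, and upstream in 104, of which 29 had an intergenic partner. Of the 200 pairs with no promoter, 141 had both summits in introns, 147 lay in the span of the same coding gene and 39 had both in intergenic sequence. Entries of the pooled list below the IDR limit lay 500 to 2000 bp from 66.3% of clustered and 70.3% of other summits, so many summits counted here as single also have a lower neighbour. Such an entry lay between the 2 summits in 127 of 576 pairs.

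GAGA and CA repeats were more common around clustered summits than around the others, most clearly at 100 to 500 bp from the summit. The GAGA motif (GAGAGAG) matched within 100 bp of 6.09% of clustered (4.72 to 7.71%) and 3.94% of other summits (3.29 to 4.68%), and the differences in the replicates' own lists were 0.943, 1.59 and 1.27 points. At 100 to 250 bp to either side it matched at 15.0% (12.9 to 17.3%) and 8.04% (7.12 to 9.05%), and at 250 to 500 bp at 17.9% (15.6 to 20.3%) and 10.6% (9.56 to 11.7%). In the replicates' own lists the difference at 100 to 250 bp was 5.94, 5.78 and 4.34 percentage points. The CA repeat (CACACACA) was found at 5.23% (3.97 to 6.76%) and 3.78% (3.14 to 4.51%) within 100 bp, where the intervals overlap, 14.5% (12.4 to 16.7%) and 9.03% (8.05 to 10.1%) at 100 to 250 bp, and 24.1% (21.5 to 26.8%) and 15.5% (14.3 to 16.9%) at 250 to 500 bp. Its differences in the replicates' own lists at 100 to 250 bp were 5.49, 5.39 and 5.36 points. The 3 stretches differ in length, so shares are compared within a stretch only. The outer 2 were added after the wider motif windows had been seen, and neighbours under 1000 bp apart can count the same repeat at 250 to 500 bp.

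At 100 to 250 bp from promoter summits GAGA matched at 72 of 495 clustered (14.5%) and 136 of 1790 other summits, and away from promoters at 15.5% and 8.63%. With the strongest summit of each run alone it matched at 16.4%. The CA repeat there matched at 13.7% (10.8 to 17.1%) and 6.93% (5.79 to 8.20%) for promoter summits. Away from promoters it matched at 15.1% (12.2 to 18.4%) and 11.8% (10.1 to 13.6%), with overlapping intervals. The difference between the 2 places was not tested. On X, GAGA at this distance matched at 16.3% of clustered and 9.02% of other summits, and the CA repeat at 18.3% (13.7 to 23.6%) and 14.5% (11.8 to 17.6%), again with overlapping intervals. On the autosomes GAGA matched at 14.6% and 7.82% and the CA repeat at 13.3% and 7.74%. Within 100 bp of the summit the GAGA difference was 2.15 points, from 0.503 points in windows of 50 bp to either side to 4.27 points with the strongest of each run alone. Simple repeats bear on how uniquely reads map, and mappability was not tested.

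The Hox core matched clustered and other summits about equally at the summit itself. The core was counted as TAATTA with its variants TAATTG and, with another ending, TAATGA as well as TAATGG, on either strand. It lay within 100 bp of 40.7% of clustered (37.7 to 43.8%) and 40.0% of other summits (38.3 to 41.8%). The differences in the replicates' own lists were 0.672, 0.309 and 0.0262 points, and among promoter summits alone the difference was -0.121 points. At 100 to 250 bp the core was less common around clustered summits, at 46.0% (42.9 to 49.0%) against 52.0% (50.2 to 53.7%), with replicate differences of -5.52, -5.38 and -3.75 points. In windows of 250 bp to either side the difference was -5.61 points. Both summits of a pair held the core in 105 of 576 pairs, and 1 did in 266. A summit with the core had a partner with it in 44.1% of cases, beside 40.7% of all members.

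Motifs of housekeeping promoters were less common at clustered summits. The DRE (TATCGATA) lay within 100 bp of 36 of 1051 clustered summits (3.43%, 2.41 to 4.71%) and 170 of 3145 others (5.41%, 4.64 to 6.25%). In the replicates' own lists the shares were 3.10% and 5.13%, 3.44% and 5.59%, and 3.06% and 5.69%. Ohler1 (GGTCACAC) lay at 1.52% (0.873 to 2.46%) and 3.28% (2.68 to 3.96%), and the Ohler7 core (CATCNCTA) at 4.28% (3.14 to 5.69%) and 6.42% (5.59 to 7.34%). The BEAF core (CGATA, which every DRE contains) lay at 30.4% (27.7 to 33.3%) and 34.2% (32.5 to 35.9%). The intervals of the DRE, the Ohler7 core and the BEAF core overlap between the groups. All 4 motifs were lower in 3 of 3 replicates (exact sign-flip permutation test, two-sided p = 0.25, the smallest possible). Fewer clustered summits were at promoters, and at promoter summits alone the DRE shares were 7.07% (4.97 to 9.70%) and 9.11% (7.81 to 10.5%). The Ohler1 shares there were 2.83% (1.55 to 4.70%) and 5.31% (4.31 to 6.45%). For both motifs the intervals overlap. In the replicates' own lists the Ohler1 shares at promoter summits were 3.66% and 5.62%, 4.33% and 5.08%, and 3.54% and 5.05%. Away from promoters 1 of 556 clustered summits and 7 of 1355 others held a DRE. The DRE difference was -0.337 points away from promoters, -0.991 points in windows of 50 bp to either side and -3.24 points with the 2175 strongest peaks.

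No pair had a DRE at both summits, where 38 had it at 1, and no pair had the CA repeat at both, where 63 had it at 1. Ohler1 was at both summits of 1 pair and GAGA of 3. Among all members the DRE was at 3.43%, the CA repeat at 5.23%, Ohler1 at 1.52% and GAGA at 6.09%. At shares this low few pairs could hold a motif at both summits, so these counts are a description only. The Hox-Exd motif, the Zelda motif, the CAGCTG E-box, the TATA box, the run of A and the backward control of the DRE had differences of under 1.2 points in the IDR list. Those of the E-box, the TATA box and Hox-Exd changed sign between lists, and in the replicates' own lists they reached -1.44 points for the E-box and -2.67 points for the run of A. Ohler1 read backwards, a control for base composition, was also lower at clustered summits (0.951% against 1.78%, in 3 of 3 replicates). The mean GC content of the windows was 39.8% at clustered and 39.1% at other summits, with differences of 0.573, 0.627 and 0.836 points in the replicates. It was 39.1% at the strongest summit of each run, so that the difference turned to -0.0736 points there.

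**Figure D5:**
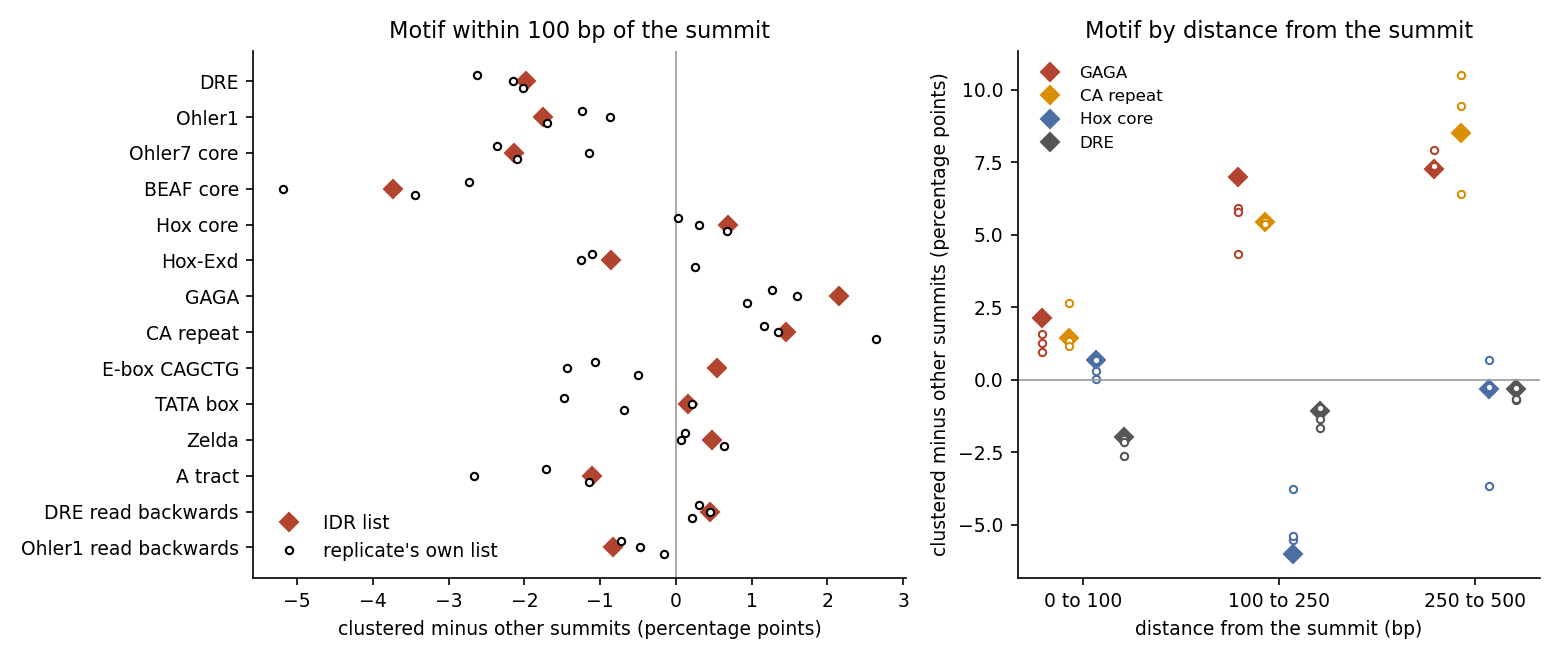
Left, percentage of clustered minus percentage of other summits with each motif within 100 bp, for the IDR list (diamonds) and the 3 replicates' own lists (circles). Right, the same difference for 4 motifs in stretches at 0 to 100, 100 to 250 and 250 to 500 bp from the summit, which differ in length; GAGA and the CA repeat lie above 0 in all of them.

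Clustered summits lay in or within 1 kb of 721 of 13968 protein-coding genes (5.16%), while 30% of the genes had any IDR summit. Of the genes with any summit, 17.2% had a clustered one. The genes with clustered summits were long, with a median span of 5452 bp, against 3353 bp for genes with other summits only and 2164.5 bp for all coding genes. Most were held by CG1677 (10 over 124709 bp), followed by ush with 9, CHES-1-like and Raf with 8 each, and tara with 7. Long genes have more room for several summits, and the part of length in these counts was not tested.

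The trithorax group, which keeps genes active, had 5 of 15 genes with a clustered summit, beside 11 with any. Among them Trl, the gene of GAGA factor, had 4 clustered summits, and the strongest had signals of 282, 401 and 402 in replicates 1, 2 and 3. It was in an intron and nearest the TSS of CG42507. At trx, the histone methyltransferase gene, the stronger summit had 66.7, 98.9 and 124, and at kis, a chromatin remodeller gene, it had 90.3, 139 and 140 near the TSS of lncRNA:CR44222. The summits counted for mor and trr were at the promoters of Hel89B and Coa8. Of the 17 Polycomb group genes 10 had a summit and only ph-p had a clustered one. None of the 8 Hox genes had a clustered summit, and 6 of them had any. The same 0 stood for 4 Hox cofactor and trunk genes, 12 gap genes and 11 pair-rule genes, of which 2, 2 and 1 had any summit. Over all genes with a summit the share with a clustered one was 17.2%, so a count of 0 in lists this small is given as a description only.

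Of 17 EGFR and Raf genes 12 had a summit and 3 had clustered ones: Raf, S with 5 and aop with 5. The strongest at S, which acts in release of EGFR ligands, had signals of 204, 234 and 267 in replicates 1, 2 and 3, and the strongest at aop, an ETS repressor gene, had 136, 150 and 167. Both were intronic. Of 14 Notch genes 8 had a summit and 4 a clustered one: gro, numb, E(spl)m8-HLH and mam. The promoter of the corepressor gene gro had 289, 317 and 312, and its partner 835 bp away, counted for E(spl)m8-HLH, was also nearest a gro TSS with 70.7, 93.7 and 116. The numb promoter had 112, 95.7 and 111. Of 11 Dpp genes 8 had a summit and 2 a clustered one, shn and brk. Of 15 segment polarity genes 7 had a summit and 1 a clustered one, ptc, whose stronger summit (75.5, 68.9 and 69.4) was nearest the TSS of lncRNA:CR44281. As shares of the genes with a summit these were 25% for the EGFR and Raf and the Dpp lists, 50% for Notch and 14.3% for segment polarity, beside 17.2% over all genes.

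Housekeeping lists varied. Clustered summits were found at 10 of 86 ribosomal protein genes (11.6%), of which 58 had any summit, so that 17.2% of the latter had a clustered one, the share of all genes. The RpL34b promoter led with 282, 267 and 258, and the RpS28b promoter had 111, 116 and 146. Of 25 Rab genes, which code for GTPases of vesicle traffic, 6 had one and 15 had any. At Rab11 the strongest was intronic (109, 130 and 161), at Rab30 it was the DRE-bearing promoter shown above (94.7, 66.8 and 119), and at Rab1 it was the promoter (59.0, 53.9 and 54.0). Of 2 summits counted for Rab18 the stronger was nearest the TSS of its divergent neighbour RpL35, and the summits counted for Rab27 and Rab23 were nearest the TSSs of mei-38 and plx. Of 40 proteasome genes 14 had any summit and 1 had a clustered one, Rpn11 with 26.8, 32.8 and 54.8.

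The remaining lists had 1 or 2 genes with clustered summits. Of 21 cell cycle genes 2 had clustered summits: the promoter of Dp, the E2F partner gene, had 247, 249 and 245, and Cdk1 had 36.4, 64.7 and 46.0. Of 12 ecdysone response genes, of which 11 had a summit, only Hr4 had clustered ones, the strongest intronic with 293, 271 and 318. Among 16 insulator and promoter factor genes it was BEAF-32 (49.9, 71.5 and 69.0), whose product binds the BEAF core. Among 19 neural fate genes it was brat (88.2, 77.6 and 61.3) and among 13 mesoderm genes Mef2, with 129, 147 and 201.5 in its 5′ UTR. Among 14 glia, hemocyte and trachea genes it was ush, and among 11 heat shock genes it was Hsp83, the Hsp90 gene (150, 113 and 173). Any summit was held by 14 cell cycle, 11 insulator and promoter factor, 5 neural fate and 7 mesoderm genes. It was held by 6 glia, hemocyte and trachea genes and by 6 heat shock genes. Of genes with a summit, 14.3% had a clustered one in the cell cycle and mesoderm lists and 9.09% in the ecdysone and insulator lists. The share was 20% for neural fate and 16.7% for the glia and heat shock lists, beside 17.2% over all genes. These lists are short and their genes differ in length, so the counts describe the lists and were not tested.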

How the data were processed

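The data are peak lists from 1 group of 3 biological replicates; no groups are compared. According to the descriptions the authors deposited beside the files, peaks were called for each replicate and for the pool with a control, and the IDR procedure then selected the optimal list. The signal deposited by the authors is the caller's measure of strength and was compared within a list only. The −log10 q-value deposited by the authors served as an alternative order for merging. Which aligner, caller and IDR limit were used is not given in the sources used here. The lists hold no read counts, so depth per replicate is unknown.

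Positions (1-based) were placed on the dm6 sequence and Ensembl release 115 models with Python 3.11.15, numpy 2.4.6, pandas 2.3.3 and scipy 1.17.1. Each summit was given 1 place: the promoter first, then exon classes (coding, 5′ UTR, 3′ UTR, other), then intron, then intergenic. TSSs of transposable elements were left out. On both strands, 14 motifs were sought within 100 bp of each summit. Replicate entries were matched within 100 bp. For comparisons with the other summits the rule was applied to each replicate's own 4351 strongest entries. The 3 differences were tested by an exact two-sided sign-flip permutation test. Where all 3 differences have the same sign, this test gives the same result whatever their size or spread. It then reflects only that these samples agree in sign. Intervals are exact (Clopper-Pearson, 95%) and cover counting error only.

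The 20 gene lists hold 234 symbols taken by name, of which 5 were updated and 3 did not match. Named were the 10 runs with the highest signal, the 5 with the most members, pairs at the limits, and up to 3 genes of each list by signal. The genes mor, trr, mam and the Rab genes beyond the third were added after their values were seen. Alternatives were other distances, merging rules, windows, TSS distances, the 2175 strongest peaks, the dm3 list and leaving out each replicate. The members and lists were chosen with earlier results of these data known. The rule and the motif count were checked on simulated lists.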

Additional observations from a re-analysis of the deposited data

How the results depend on the processing

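The number of clustered summits and runs, 1051 and 475, fell to 454 and 218 with an upper limit of 1000 bp and to 345 and 163 with the 2175 strongest peaks. The ratio of median signals, clustered to others, was 1.10, and 1.06 at 1000 bp, 1.06 at 3000 bp, 1.03 in the 2175 strongest, 1.07 in the replicates' own lists and 1.06 to 1.09 without 1 replicate. Pairs nearest 1 gene went from 72.4% to 80.9% (1000 bp), 65.6% (3000 bp) and 76.4% (2175 strongest). Resolved pairs went from 74.2% to 62.9% and 77.4% (matches within 50 and 200 bp), 94.3% (all entries) and 96.7% (2175 strongest). The Hox core difference turned to -5.61 points in windows of 250 bp to either side and -0.121 at promoter summits, and the GC difference to -0.0736 for the strongest of each run; the causes were not tested. Motif differences near 0 changed sign more often. The TATA box reached -1.58 (1000 bp), -0.309 (midpoints), -0.651 (replicates), -1.08 to -0.240 without 1 replicate, -0.510 and -1.01 (windows of 50 and 250 bp), -0.135 (strongest of run) and -0.392 (away from promoters). The E-box reached -0.0846 (2175 strongest), -1.001 (replicates), -1.25 to -0.783 without 1 replicate, -0.331 (50 bp) and -0.710 (strongest of run). Zelda reached -0.431 (2175 strongest) and -0.120 (promoters), the backward DRE -0.341 (1000 bp) and -0.216 (2175 strongest), and Hox-Exd 0.333 (50 bp). Of 312 alternative values 25 changed direction, and none of these was a promoter, DRE, Ohler1, GAGA or CA repeat difference. Single replicates split by place did hold reversals within 100 bp of the summit. Away from promoters the CA repeat in replicate 3 was at 4.15% of clustered and 4.89% of other summits. The DRE in replicate 1 was there at 0.350% and 0.291%, or 2 of 571 and 4 of 1375. Farther out, Ohler1 at 100 to 250 bp was 0.414 at promoter summits and 0.213 in replicate 3, and the DRE at 250 to 500 bp was 0.267 away from promoters and 0.397 on autosomes. Merging by q-value or by linkage gave the same numbers as the main merging, and the dm3 list gave 976 members. No paired analysis was possible between groups because there is 1 group; the sign-flip test took differences within each replicate. The comparisons of the strongest of each run and by place were chosen after seeing the data.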
